A study of Drosophila melanogaster with 4 samples.

Results

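dpp encodes Decapentaplegic, a secreted ligand of the bone morphogenetic protein family, and tkv encodes Thickveins, a type I receptor for it. Cmi binding was examined at these 2 genes on chromosome arm 2L by ChIP-seq of Drosophila melanogaster embryos collected over 0 to 8 h. The members were the peaks whose midpoint lay in 1 of 2 intervals fixed by position on FlyBase release 5, without use of their scores. The genes and intervals were, however, chosen with earlier results of these data known. The dpp interval ran from 2425000 to 2490000 and takes in the 3' regulatory region of the gene, and the tkv interval ran from 5210000 to 5270000. The intervals held 6 of the 3110 peaks of the list and of the 429 peaks on 2L. Of these, 1 lay in the dpp interval and 5 lay in the tkv interval.

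The labels describe 2 libraries precipitated with an affinity-purified polyclonal rabbit antibody raised against full-length Cmi and 2 libraries of input DNA. Cmi, or Cara Mitad, is the product of CG5591, for which the release 6 gene table gives the symbol Lpt. It is a subunit of the enhancer-associated Trithorax-related (Trr) complex, a methyltransferase of histone H3. All 4 libraries came from embryos of the strain Exd-GFP-13T, genotype w; PBac{y[+]-attP-3B}VK00033, which carry a genomic exd transgene fused to GFP, so no group without the transgene was compared. The sex of the embryos is labelled unknown, and the extraction protocol in the same labels names another stock and a later egg collection than the strain and stage fields. The deposited result is 1 peak list with no value for single libraries, so the depth behind each peak is unknown, no replicate error can be given, and no test between conditions was possible. Whole embryos were used, so binding in few cells and weak binding in many cells cannot be told apart.

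In Drosophila, Dpp binds Tkv together with the type II receptor Punt, and the activated Tkv kinase phosphorylates Mad, which enters the nucleus with Medea and acts on transcription. In the early embryo Dpp patterns the dorsal ectoderm and the amnioserosa, and later it acts in the midgut and in the discs that form the adult appendages. The dpp gene is controlled by enhancers spread over a long region, and those for the imaginal discs lie 3' of the coding sequence.

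The interval of the ligand gene held a single, isolated Cmi peak with a score near the middle of the list. This peak lay at 2L 2454738 to 2455039, was 302 bp wide and had the score 15.75, the authors' own value for the peak. Its midpoint was 29.9 kb from the start and 35.1 kb from the end of the interval, near the middle. The rest of the interval, 29.7 kb before and 35.0 kb after the peak, held no called peak. Peaks covered 0.465% of the interval.

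The interval of the receptor gene held 5 Cmi peaks, all within 10.4 kb in its middle. They are numbered here in order along the arm. Peak 1, from 5237462 to 5238243, was 782 bp wide and had the score 13.99. Peak 2, from 5238605 to 5238915, was 311 bp wide and had the score 9.89. Peak 3, from 5239521 to 5240336, was 816 bp wide and had the score 16.00. It was the highest and the widest of the 5, and wide peaks alternated with narrow ones over peaks 1 to 4. Peak 4, from 5240502 to 5240725, was the lowest and narrowest, with 224 bp and the score 7.44. Peak 5 lay farther along, from 5247606 to 5247882, and its 277 bp had the score 13.03. The peaks covered 2410 bp, or 4.02% of the interval. The first 27.5 kb and the last 22.1 kb of the tkv interval were without a called peak.

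**Figure D1:**
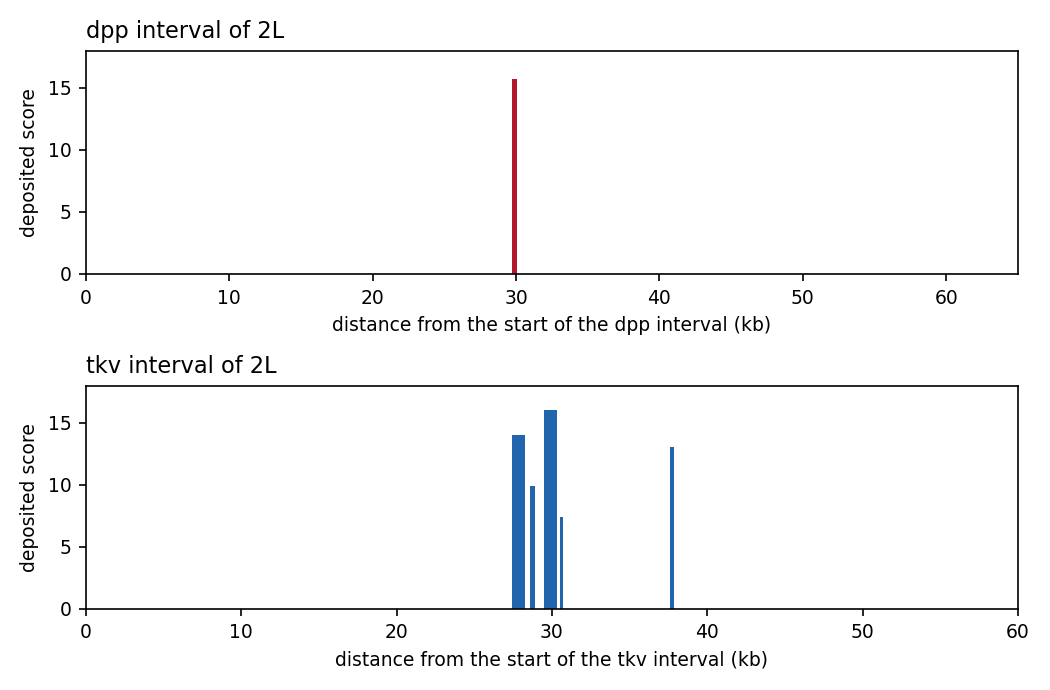
Cmi peaks in the dpp interval (65 kb, upper panel) and the tkv interval (60 kb, lower panel). The x axis gives the distance from the interval's start in kb, the y axis the deposited score, and each bar is 1 peak drawn at its width. The single dpp peak (15.75) reaches nearly the height of the highest of the 5 tkv peaks (16.00), and neither interval has a peak outside its middle part.

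Peaks 1 to 4 of tkv formed a compact group, and peak 5 fell outside it at the chaining distance used. The edges of peaks 1 and 2 were 361 bp apart, those of peaks 2 and 3 were 605 bp apart, and those of peaks 3 and 4 were 165 bp apart. Peak 5 began after a gap of 6880 bp, which was longer than 43.9% of the gaps between neighbouring peaks of 2L (median 12.3 kb). Its spacing was thus not unusual for the arm. No chaining distance other than 5 kb was tried, so the groups below hold for that distance. When peaks of 2L were chained at midpoints up to 5 kb apart, the arm gave 267 groups, of which 16 held 4 or more peaks. Peaks 1 to 4 were 1 of 10 groups of exactly 4. Their group spanned 3264 bp, the second shortest span of the 10 (median 4872 bp), and 65.3% of that span lay under a peak, the third highest share (range 32.7% to 90.2%). The top score of the group, 16.00, was only 7th of the 10, whose top scores ran from 14.42 to 71.7. The tkv group was thus tightly packed but not high among groups of its size.

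**Figure D2:**
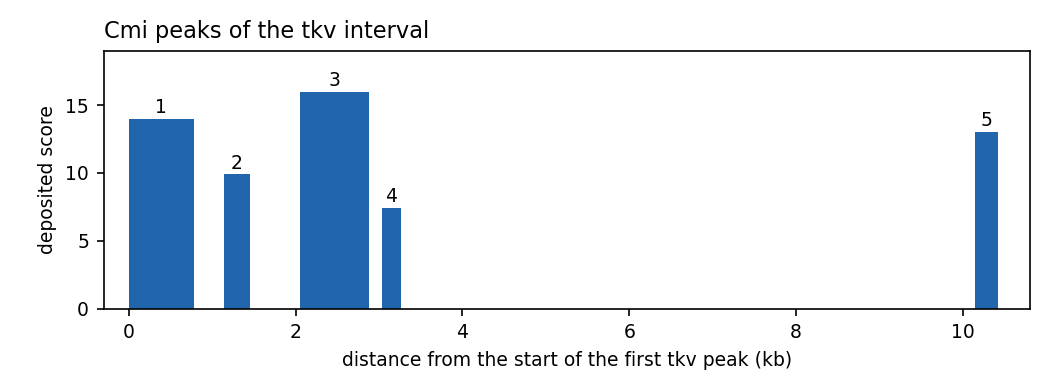
The 5 tkv peaks on an enlarged scale. The x axis gives the distance from the start of peak 1 in kb and the y axis the deposited score, and each bar is 1 peak drawn at its width. Peaks 1 to 4 lie within 3264 bp, and peak 5 follows after a gap of 6880 bp.

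The scores of all 6 peaks lay in the lower and middle range of the arm. On 2L the median score was 13.56 (quartiles 9.94 and 21.39, n = 429 peaks), and the highest was 207.1. The dpp peak ranked 172nd of the 429 by score, and 59.9% of the 2L peaks scored lower. Peak 3 of tkv ranked 170th, close to the dpp peak, and was higher than 60.4% of the 2L peaks. Peaks 1 and 5 were higher than 51.7% and 46.6% of them. Peak 2 was higher than 22.8%, and peak 4 ranked 413th, higher than 1.86%. Against the whole list, whose median was 15.75, only peak 3 of tkv was above the median, and the dpp peak was exactly at it. The scores of the dpp peak and of peak 3 carry no error, so their order is a description of this list.

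In width, the dpp peak and peaks 2, 4 and 5 of tkv lay below the arm's median of 418 bp (quartiles 279 and 706 bp, n = 429 peaks). Peaks 1 and 3 of tkv lay above it, and the median width of the 5 tkv peaks was 311 bp. The dpp peak was wider than 29.6% of the 2L peaks, peak 1 of tkv than 79.3% and peak 3 than 81.8%. Peak 2 was wider than 31.7%, peak 4 than 9.09% and peak 5 than 24.0%. Because width may vary with score, each member was also set beside the 2L peaks whose score was within 2 of its own. The dpp peak was wider than 19.7% of 61 such peaks, whose median width was 438 bp. Peak 1 of tkv was wider than 90.1% of 91 such peaks (median 375 bp), and peak 3 than 84.9% of 53 (median 443 bp). Peak 2 was wider than 55.9% of 136 such peaks, peak 4 than 26.3% of 80 and peak 5 than 30.3% of 109. At matched score, peaks 1 and 3 of tkv were thus on the wide side, and peaks 4 and 5 of tkv were on the narrow side like the dpp peak.

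**Figure D3:**
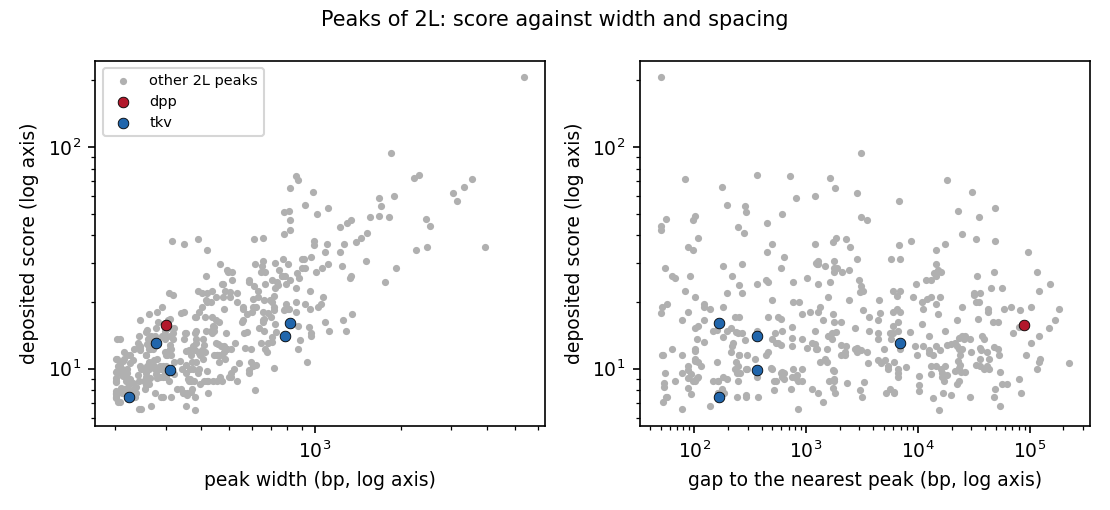
Deposited score (log axis) of the 429 peaks of 2L against peak width in bp (left, log axis) and against the gap in bp to the nearest other peak (right, log axis). Each point is 1 peak, red for dpp, blue for tkv and grey for the rest of the arm. The dpp peak lies at the narrow side for its score and among the most isolated peaks. Of the 5 tkv peaks, 4 have a neighbour within 361 bp, where 26.3% of the 2L peaks have a neighbour nearer than that.

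The deposited score has no stated scale. Of the 84 scores shared by 5 or more peaks, 77 fell on the steps that whole reads give as −log10 of a Poisson p-value over a background of 31.1 reads. This background was the one that matched the most of these same scores, so the 77 is a fitted maximum. Read in this way, the dpp peak reached 87 reads, 2.80 times the background. Peak 1 of tkv reached 83 reads, or 2.67 times the background, and peak 4 reached 66 reads, or 2.12 times. These reads are on the scale of the caller, not a count per library. The background is 1 fitted value for the whole list, so the ratios are not enrichment over input at each peak. The scores of peaks 2, 3 and 5 were off the steps, so no height was read from them. Of all 2L peaks, 69.0% were on the steps.

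The dpp peak was among the most isolated of the arm. The peak before it ended 89.3 kb away, and the peak after it began 121.5 kb away, where the median gap between neighbouring peaks of 2L was 12.3 kb (428 gaps). Its nearest neighbour was farther away than that of 96.3% of the 2L peaks, and the peak ranked 16th of 429 in this distance. The gaps on its sides were the 80th and the 59th longest of the arm. The nearest peaks outside the interval lay at 2364948 to 2365481 (score 8.83), with a midpoint 59.8 kb before it, and at 2576571 to 2577537 (score 13.99), 87.1 kb after it. The limits of the dpp interval could thus be moved outward by that much with the count still at 1.

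A long stretch without peaks also preceded the tkv peaks. The peak before them ended 143.9 kb before peak 1, the 49th longest gap of 2L. On the other side, peak 5 was followed by a gap of 44.4 kb, longer than 70.1% of the gaps. The nearest peaks outside the tkv interval lay at 5092795 to 5093605 (score 18.54), 116.8 kb before it, and at 5292324 to 5293607 (score 14.86), 23.0 kb after it. The dpp peak and peak 1 of tkv were 2.78 Mb apart, with 68 other peaks between them.

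To place the counts, stretches of the same length were slid along 2L in steps of 1 kb from its first to its last peak. Overlapping stretches are not independent, so the shares describe the arm and no p-value was computed. For dpp, 50.3% of the 21813 stretches of 65 kb held no peak, 18.7% held 1 as the dpp interval did, and 31.0% held more. The share with 1 or more peaks was 49.7%, so holding any peak at all did not set the dpp interval apart from the arm. The covered length of 302 bp exceeded that of 55.2% of the stretches, most of them empty. It exceeded that of 9.94% of the stretches with at least 1 peak, and of 26.9% of the 4008 stretches that held 1 peak and lay outside the dpp interval.

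For tkv, 94.0% of the 21818 stretches of 60 kb held fewer peaks, 2.54% held 5 and 3.42% held more. The share with 5 or more was 5.96%, and the fullest stretch held 13. The covered length exceeded that of 92.2% of the stretches, or 83.7% of those with at least 1 peak. The highest score exceeded that of 71.8% of all stretches, but 52.6% of all stretches held no peak and so counted as lower. Among the 509 stretches that held 5 peaks and lay outside the tkv interval, only 6.48% had a lower top score. The median top score of these 509 was 28.44. Their median covered length was 2644 bp, close to the 2410 bp at tkv. The tkv interval was thus rich in peaks for its length, and its top score was low among these stretches. This describes an interval that was chosen with earlier results of these data known. The 509 stretches overlap and share peaks, and the number of separate places they come from was not counted. With peaks joined where their edges were within 1 kb, peaks 1 to 4 became 1 region, the count fell to 2, and 76.7% of the stretches held fewer. Among peaks above the median score of the list, the tkv interval kept 1 peak and 71.5% of the stretches held fewer. The dpp peak is tied with that median and was left out by it. With the tie kept in, a setting chosen after seeing the data, the dpp interval held its 1 peak and 69.5% of the stretches held fewer.

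**Figure D4:**
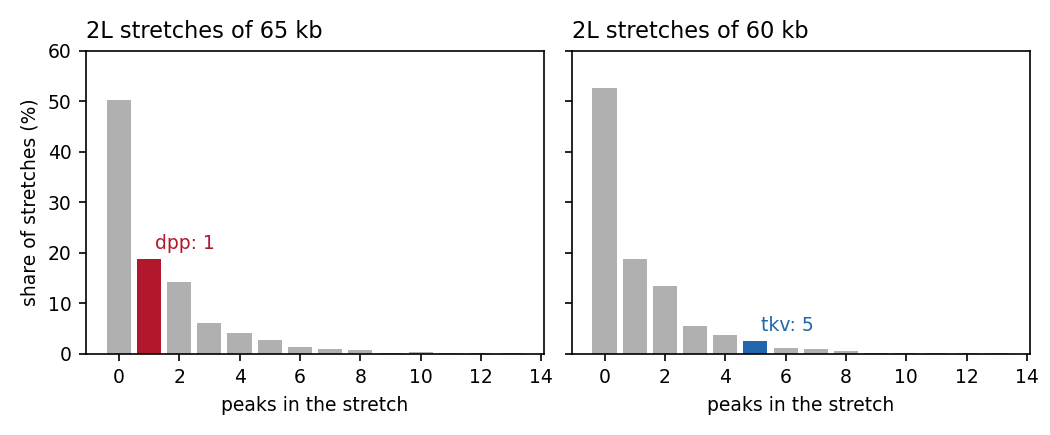
Number of peaks in stretches slid along 2L, of 65 kb for dpp (left) and 60 kb for tkv (right). The x axis gives the peaks in a stretch and the y axis the share of stretches in percent, with the bar that holds the interval itself in colour. The dpp interval falls in the bar of 1 peak (18.7%), next to the 50.3% of stretches without a peak, and the tkv interval falls in the bar of 5 peaks (2.54%).

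The peaks were placed by interval and not assigned to genes, because the only gene table used is of release 6 and coordinates were not carried between builds. In that table the protein-coding genes next to dpp (CG9885) were CG44139 on one side and Slh on the other, followed by oaf. For tkv (CG14026) the neighbours were CG14034 and Nin. The genes TpnC25D, which encodes a troponin C, and Cyp4ac1, Cyp4ac2 and Cyp4ac3, which encode cytochrome P450 enzymes, lay within or overlapped tkv itself. Which of these genes the 5 peaks of the tkv interval lie nearest to was not tested.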

How the data were processed

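The build BDGP5 and the tools MACS2, BWA and CASAVA (versions 1.7.0.2 and 1.7.0.3) are named per the submitters' processing notes. Their roles, options and thresholds and any pooling of replicates are not given there. The deposited peak list is on FlyBase release 5 and comes from MACS, per the file headers. The deposited score has no stated scale, and a background was fitted to its recurrent values (5 or more peaks, tolerance 0.0061, scan from 5 to 120 reads; no background over 1 read away matched more than 10 values). Coordinates are 1-based.

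Peaks were counted by midpoint, and stretches were slid along 2L between its first and last peak with Python 3.11.15, numpy 2.4.6, pandas 2.3.3 and scipy 1.17.1. The counting and the background fit were tested on simulated data. The simulated scores all lay on the steps of a single background, and the scan was narrower than the one used here. That test thus does not show how the fit behaves when some scores are off the steps. No test between groups was made. The genes, intervals and comparisons were chosen with earlier results of these data known. By rule, every peak of both intervals and the nearest peaks outside are given. The peaks set at matched score, the chained groups and the gaps were described in addition. Other genes of the Dpp pathway were not analysed here, because no annotation of release 5 was used. Alternatives were overlap in place of midpoint, stricter scores, joined peaks, other interval limits, steps of 5 kb, all large arms and occupied stretches only.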

Additional observations from a re-analysis of the deposited data

How the results depend on the processing

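Of 30 alternative values for the number of peaks and the share of stretches holding fewer, 19 stayed within a set range. For the count the range was 1.5 times in either direction. For the share it was a 95% Wilson interval, 45.0% to 55.6% for dpp and 91.0% to 96.0% for tkv. That interval took the share over the sliding stretches and, as sample size, the 336 (dpp) or 364 (tkv) stretches that fit end to end. Stretches of the arm are not independent draws, so it served as a yardstick and gives no error of the shares. Overlap by 1 base, limits moved by 5 kb, steps of 5 kb and all large arms were among the 19. Limits moved by 5 kb could not change either count, because no peak lay that near to a limit. Overlap by 1 base could not change them either, because no peak crossed a limit. Joining within 1 kb could not change the dpp count, because the nearest other peak was 89.3 kb away. These unchanged counts are thus no sign of stability. Steps of 5 kb drew from the same stretches as the main steps. Among peaks scoring above the median of the list, the tkv interval held 1 peak and 71.5% of stretches held fewer. The dpp interval held 0 there, because its peak is tied with the median, and a count of 0 fixes the share at 0%. With peaks at the median kept, an alternative chosen after seeing the data, dpp held 1 peak and 69.5% of stretches held fewer, and tkv held 1 and 71.3% fewer. With peaks within 1 kb joined, tkv held 2 and 76.7% of stretches held fewer. Among stretches with at least 1 peak, 0% held fewer than dpp and 87.4% fewer than tkv, since the empty stretches are left out. No paired analysis was possible because every peak has 1 score for the whole experiment, and no replicate could be left out for that reason. The depth is unknown, so a stretch without a peak is not shown to lack Cmi.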
